A study of Mus musculus with 6 samples.

Results

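The replication-dependent and linker histone genes of the mouse were examined at their promoters for the transcription factor subunit TAF4b and for the histone mark H3K4me3. They were taken as the protein-coding genes whose GENCODE symbol begins with H1f, H2ac, H2bc, H3c or H4c followed by a number, and 73 of 21581 protein-coding genes met this rule. They comprise 11 H1, 18 H2A, 19 H2B, 12 H3 and 13 H4 genes. The cells were prospermatogonia, which are fetal male germ cells, collected at embryonic stage E16.5. All samples were labelled C57BL/6, male and Taf4b-wildtype, and the mice mated for collection were homozygous for an Oct4-EGFP transgene, held on a mixed B6 and 129S4 stock by its name. Live cells were separated by fluorescence-activated sorting on green fluorescence, and the labels do not say which sorted fraction entered each library. CUT&RUN, in which an antibody directs a nuclease to cut out the DNA around its target, was carried out with antibodies against TAF4b, H3K4me3 or control IgG, in 2 replicates each. IgG values were not analysed here, and the values below therefore stand without an antibody background. Nothing states that the replicates came from separate animals.

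Histone genes of the replication-dependent kind are transcribed mainly while DNA is copied, lie in clusters, and give mRNAs that end in a stem-loop in place of a poly(A) tail. Many H2A and H2B genes stand head to head and share the DNA between their starts. TAF4b is a germ cell-enriched form of a core subunit of TFIID, the complex that assembles at promoters, and H3K4me3 is a mark of promoters. Male germ cells at this stage are known to be arrested in the cell cycle, but neither the cell cycle nor transcription was measured in these libraries.

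The TAF4b lists held 7861 peaks in replicate 1 and 848 in replicate 2, and the H3K4me3 lists held 64891 and 1730 regions. The depth of each library is unknown, and a gene missing from a short list was not shown to lack the signal. Each interval carries the authors' peak score, with a scaling that is not stated, and scores were compared only within a list. As a check of the cells, TAF4b peaks in replicate 1 lay at 7 of 10 germ cell marker genes, at 0 of 5 Sertoli cell, 1 of 6 Leydig or interstitial and 0 of 4 endothelial or blood cell markers. H3K4me3 regions in replicate 1 lay at 7 of 10, 4 of 5, 3 of 6 and 1 of 4 of the same markers, so the mark was not more frequent at germ cell than at Sertoli cell markers. The shares of all protein-coding genes in replicate 1 were 27.7% for TAF4b and 69.6% for H3K4me3. TAF4b peaks of replicate 2 lay at 0 markers of each of these lists, against 3.99% of all genes. H3K4me3 regions of replicate 2 lay at 1 germ cell and 1 Sertoli cell marker and at 0 others, against 6.71%. Of the Leydig and interstitial markers, Star, Cyp11a1 and Hsd3b1 had no interval in any list, Insl3, Nr2f2 and Pdgfra had H3K4me3, and Nr2f2 also had TAF4b. The germ cell genes Nanos2 and Nanos3 had no interval in any list. The part of other cells in the histone gene values was not tested.

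Promoters that carried the results are shown first, read from GRCm39. The first sequence is the whole DNA between the starts of the head-to-head genes H2ac11 and H2bc11, a pair that carried TAF4b in both replicates, at chr13:22227115-22227383 (plus strand). Capitals mark the CCAAT box and the octamer ATTTGCAT, on either strand. The CCAAT box is bound by the factor NF-Y and the octamer by OCT1 (Pou2f1).
H2ac11/H2bc11: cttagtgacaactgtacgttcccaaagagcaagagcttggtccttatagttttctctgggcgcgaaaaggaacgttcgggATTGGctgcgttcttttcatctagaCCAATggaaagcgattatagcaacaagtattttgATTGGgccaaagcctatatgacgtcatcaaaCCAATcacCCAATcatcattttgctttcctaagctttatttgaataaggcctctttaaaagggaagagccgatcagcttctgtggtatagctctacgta
The TAF4b peak covered bases 4 to 146 in replicate 1 and 75 to 263 in replicate 2, and 5 CCAAT boxes lay at bases 81, 106, 140, 171 and 179.

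The next 5 sequences run from the far edge of a TAF4b peak to the base before the annotated start. For each histone type they show the highest-scoring peak of replicate 1 that was centred upstream, in a stretch of at most 300 bases, free of exons of protein-coding transcripts in GENCODE release 39 and not shown already. The sequences belong to H1f2 (chr13:23922704-23922790, plus strand), H2ac7 (chr13:23758420-23758554, plus strand), H2bc18 (chr3:96176843-96177067, plus strand), H3c6 (chr13:23746544-23746635, minus strand) and H4c3 (chr13:23882438-23882613, minus strand). H3c6 and H3c8 tied with a TAF4b score of 13.4, and H3c6 is shown. The H2bc18 stretch overlaps exons of the noncoding genes Gm42743 and Gm20628, whose transcription was not measured. Capitals mark the same motifs.
H1f2: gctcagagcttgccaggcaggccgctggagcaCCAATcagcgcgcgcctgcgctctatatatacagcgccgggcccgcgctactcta
H2ac7: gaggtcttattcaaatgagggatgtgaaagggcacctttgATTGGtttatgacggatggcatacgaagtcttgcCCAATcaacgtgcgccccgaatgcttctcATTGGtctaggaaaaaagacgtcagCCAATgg
H2bc18: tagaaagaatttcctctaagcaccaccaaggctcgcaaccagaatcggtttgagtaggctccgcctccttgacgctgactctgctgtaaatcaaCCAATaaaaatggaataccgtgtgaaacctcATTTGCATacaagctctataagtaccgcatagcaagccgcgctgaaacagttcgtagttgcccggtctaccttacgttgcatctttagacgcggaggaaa
H3c6: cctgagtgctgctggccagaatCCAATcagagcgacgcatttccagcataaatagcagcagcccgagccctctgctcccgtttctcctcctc
H4c3: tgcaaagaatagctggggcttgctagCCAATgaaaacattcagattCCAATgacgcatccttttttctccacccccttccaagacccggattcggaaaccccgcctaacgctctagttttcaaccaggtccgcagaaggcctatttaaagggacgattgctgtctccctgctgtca
All 5 held a CCAAT box, and H2bc18 also held the octamer, at base 126. The H2ac7 stretch held 4 CCAAT boxes, H4c3 held 2, and the other 3 held 1 each.

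TAF4b peaks were counted at a gene when they came within 500 bp of one of its annotated starts. In replicate 1 they lay at 37 of 73 histone genes, 50.7% (95% Wilson interval 39.5 to 61.8), against 27.7% of all protein-coding genes. In replicate 2 they lay at 9 histone genes, 12.3% (6.62 to 21.8), against 3.99% of all genes. In both replicates the share at histone genes was above the share of all genes, and both intervals lay above it. When the replicate 1 list was cut to its 848 highest peaks, the length of the replicate 2 list, the share was 4.11% (1.41 to 11.4), against 4.32% of all genes, so no excess was seen in replicate 1 at that length. The intervals cover counting error only, and genes that share a promoter are not independent. Histone genes mostly have 1 annotated start (66 of 73), whereas the median over all genes is 2, and at canonical starts the shares of all genes were 25.8% and 3.74%.

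H3K4me3 regions lay at 63 of 73 histone genes in replicate 1, 86.3% (76.6 to 92.4), against 69.6% of all genes (66.2% at canonical starts). In replicate 2 only 4 histone genes had a region, 5.48% (2.15 to 13.3), against 6.71% of all genes (5.86% at canonical starts). The share in the short replicate 2 list was thus near that of all genes. The 1730 highest regions of replicate 1, as many as replicate 2 lists, reached 34.2% of histone genes (24.4 to 45.7), against 6.77% of all genes. All 4 also had a region in replicate 1, which makes 4 of the 63, against 9.57% of all genes with a replicate 1 region.

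The excess of H3K4me3 depended on how intervals were given to genes. A stricter rule used only the gene in the annotation of a deposited row of the promoter class. The nearest promoter that the row also lists was left out, so an interval went to 1 gene. Counted so, H3K4me3 in replicate 1 was at 38.4% of histone genes (28.1 to 49.8), against 44.3% of all genes. In replicate 2 it was at 1.37% (0.242 to 7.36), against 4.16%. By the same rule TAF4b was at 35.6% (25.6 to 47.1) in replicate 1, against 22.9%, and at 6.85% (2.96 to 15.1) in replicate 2, against 3.15%. Only the TAF4b interval of replicate 1 lay above the share of all genes under that rule. Counted by any deposited row that names the gene, H3K4me3 was at 69.9% (58.6 to 79.2) and 4.11% (1.41 to 11.4) of histone genes in replicates 1 and 2, against 78.7% and 7.49%. TAF4b was at 45.2% (34.3 to 56.6) and 12.3% (6.62 to 21.8), against 29.1% and 3.83%, and both of these intervals lay above the share of all genes.

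Every one of the 37 genes with TAF4b in replicate 1 also had H3K4me3 in replicate 1, against 97.2% of all genes with TAF4b. Seen from the mark, 37 of the 63 marked histone genes had TAF4b, 58.7% (46.4 to 70.0), against 38.7% of all marked genes. Of these 37 genes, 9 had TAF4b in replicate 2, against 12.6% of all genes with TAF4b in replicate 1. Of the 63 marked genes, 9 had TAF4b in replicate 2, against 5.62% of all marked genes. The 9 were all of the histone genes with TAF4b in replicate 2.

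The antibodies were compared over libraries. The share of histone genes with an interval was 50.7% and 12.3% for TAF4b, a mean of 31.5% ± 27.1 (SD, n = 2), and 86.3% and 5.48% for H3K4me3, a mean of 45.9% ± 57.1 (SD, n = 2). The ranges overlapped, and the difference of 14.4 percentage points was smaller than either spread (exact two-sided permutation p = 1, where 2 libraries against 2 cannot give less than 1 in 3). H3K4me3 was higher by 35.6 percentage points in replicate 1 and differed by -6.85 in replicate 2.

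**Figure D1:**
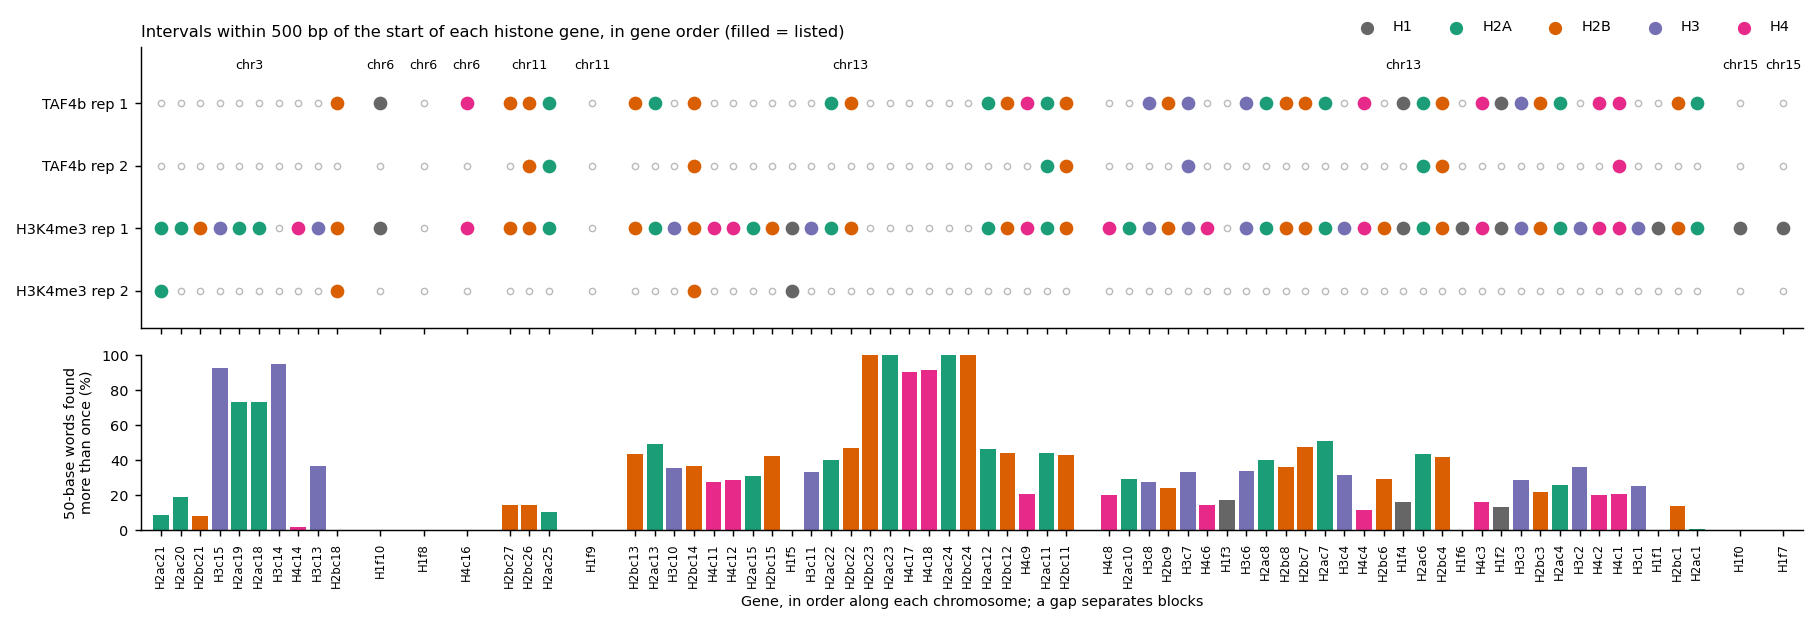
Top, each of the 73 histone genes (x, in gene order) against the 4 lists (y), with filled points where an interval lay within 500 bp of a start, coloured by histone type. Bottom, percentage of 50-base words around the coding start that occur more than once in the genome. Filled points are dense in the H3K4me3 replicate 1 row (63 genes) and absent over the 6 neighbouring genes H2bc23 to H2bc24, whose bars reach 90.3% or more.

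The genes fall into 4 clusters and 6 single genes. On chromosome 3, 10 genes lie between 96127181 and 96177448. On chromosome 11, 3 genes lie between 58838848 and 58847656, and on chromosome 13, 23 genes lie between 21899933 and 22227846 and 31 between 23715220 and 24118834. TAF4b in replicate 1 was at 1 of 10 genes of the chromosome 3 cluster, 3 of 3 on chromosome 11, 10 of 23 in the first chromosome 13 cluster and 21 of 31 in the second. H3K4me3 in replicate 1 was at 9, 3, 17 and 30 of the same genes. In the chromosome 3 cluster the gene with TAF4b was H2bc18. The intervals around 1 of 10 (1.79 to 40.4%) and 9 of 10 (59.6 to 98.2%) include the 27.7% and 69.6% of all genes. Those of the first chromosome 13 cluster include them too (25.6 to 63.2% and 53.5 to 87.5%), and those of the second lie above them (50.1 to 81.4% and 83.8 to 99.4%). On chromosome 11 the interval around 3 of 3 (43.9 to 100%) lies above 27.7% for TAF4b and includes 69.6% for H3K4me3. In replicate 2, in the same order of clusters, TAF4b was at 0, 2, 3 and 4 genes and H3K4me3 at 2, 0, 2 and 0, so the cluster with the largest H3K4me3 count in replicate 1 had none in replicate 2.

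Within each type, TAF4b in replicate 1 was most frequent at H2B genes, which encode a core histone that pairs with H2A. It was at 14 of 19 H2B genes (73.7%, 51.2 to 88.2) and 10 of 18 H2A genes (55.6%, 33.7 to 75.4). Of the genes for the other core histone pair, it was at 4 of 12 H3 (33.3%, 13.8 to 60.9) and 6 of 13 H4 genes (46.2%, 23.2 to 70.9). Of the H1 genes, which encode the linker histones that bind outside the nucleosome core, it was at 3 of 11 (27.3%, 9.75 to 56.6). The intervals of the types overlap, so the order was not resolved at these numbers. In replicate 2 the counts were 4 H2B, 3 H2A, 1 H3, 1 H4 and 0 H1 genes. H3K4me3 in replicate 1 was at 17 of 19 H2B, 16 of 18 H2A, 11 of 12 H3, 11 of 13 H4 and 8 of 11 H1 genes.

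**Figure D2:**
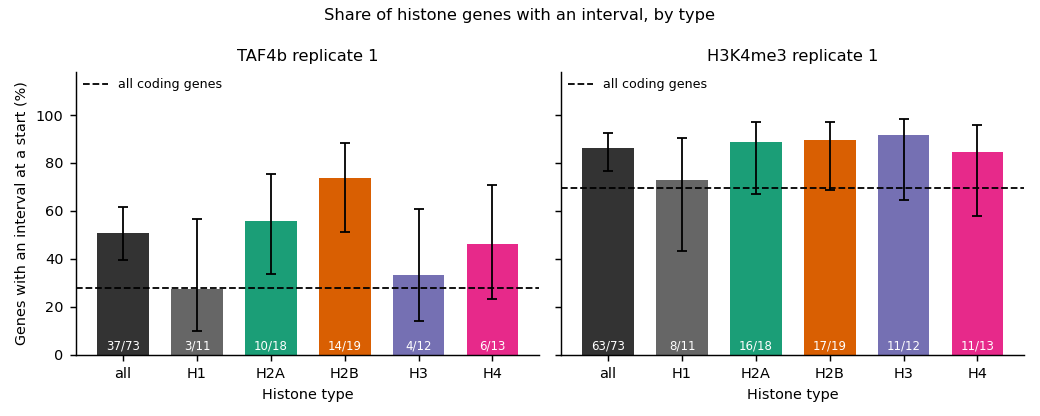
Percentage of histone genes with an interval at a start (y), by histone type (x), for TAF4b and H3K4me3 in replicate 1. Bars are shares with 95% Wilson intervals, white figures are counts, and the dashed line is the share of all protein-coding genes (27.7% and 69.6%). H2B has the tallest TAF4b bar, and the H1 bar is level with the line.

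Of the 24 H2A and H2B genes with TAF4b in replicate 1, 19 lay in head-to-head pairs. There were 14 pairs of histone genes with divergent starts within 1000 bp, 13 of them an H2A with an H2B gene and 1 an H2B with an H3 gene (H2bc9 and H3c7). Their starts lay a median of 262.5 bp apart (176 to 660). A TAF4b peak of replicate 1 lay between the starts, or overlapped that stretch, in 10 of the 14 pairs, and an H3K4me3 region did in 12. Replicate 2 had TAF4b in 3 pairs and H3K4me3 in 0.

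By gene, 20 of 28 genes in such pairs had TAF4b in replicate 1 (71.4%, 52.9 to 84.7), against 17 of 45 others (37.8%, 25.1 to 52.4). Over all protein-coding genes with a divergent coding start within 1000 bp the share was 60.7%, and without one it was 24.0%. These splits differ, because the 45 others are outside pairs of histone genes but may face a coding gene of another kind. The contrast between paired and single histone genes thus has the direction seen over all genes, and the interval for the paired histone genes includes the share of all divergent genes, a comparison that changes when genes with repeated sequence are left out, as given with those genes. In replicate 2 the counts were 7 of 28 (25.0%, 12.7 to 43.4) and 2 of 45 (4.44%, 1.23 to 14.8). There the interval for the paired genes lies above the 11.3% of all genes with a divergent start. It counts both genes under a shared peak, so it is too narrow, and the difference was not tested. Among H2A and H2B genes alone, 19 of 27 paired and 5 of 10 unpaired genes had TAF4b in replicate 1. H3K4me3 in replicate 1 was at 24 of 28 paired (85.7%) and 39 of 45 other genes (86.7%), shares that differ little beside those of TAF4b.

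The peaks at pairs were placed relative to the midpoint between the starts. Their centres lay a median of 45.25 bp from it (3 to 189, n = 10), and the starts of these pairs lay a median of 263.5 bp apart. The widest offsets were -189 bp, on the H2bc9 side, at H2bc9 and H3c7, whose starts are 660 bp apart, and -105 bp, on the H2ac8 side, at H2ac8 and H2bc8, where the centre lay outside the stretch of 176 bp. In the 9 H2A and H2B pairs with a peak, its centre was nearer the H2A coding start in 4 and nearer the H2B coding start in 5. Scores at pairs had a median of 26.05 (13.9 to 32.8, n = 10), and those at genes outside pairs a median of 15.15 (6.95 to 31.8, n = 18).

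The pair H2ac6 and H2bc4 had the highest TAF4b score at histone genes in both lists, 32.8 in replicate 1 and 85.0 in replicate 2, in peaks centred 3 and 9 bp from the midpoint. Its H3K4me3 region scored 137.1 in replicate 1, and it was not listed in H3K4me3 replicate 2. H2ac11 and H2bc11, shown above, had TAF4b scores of 26.3 and 64.8, and H2bc26 and H2ac25 had 24.3 and 64.8. Neither was listed in H3K4me3 replicate 2, and their replicate 1 regions scored 193.8 and 140.1. These 3 pairs were the ones with TAF4b in both replicates.

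Another 6 H2A and H2B pairs had TAF4b in replicate 1 only. Scores were 26.8 at H2bc7 and H2ac7, 26.3 at H2ac22 and H2bc22 and at H2ac12 and H2bc12, 19.9 at H2bc13 and H2ac13, and 13.9 at H2ac8 and H2bc8. The sixth pair, H2bc1 and H2ac1, encodes the testis-specific forms of H2B and H2A, which germ cells are known to incorporate into chromatin. It had a TAF4b score of 25.8 and an H3K4me3 score of 172.9 in replicate 1, and was in neither replicate 2 list. Pairs without TAF4b were H2ac20 and H2bc21, and H2ac15 and H2bc15, which both had H3K4me3, and H2bc23 and H2ac23, and H2ac24 and H2bc24, which had no interval in any list.

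Outside head-to-head pairs of protein-coding genes, TAF4b in replicate 1 was at 5 H2A or H2B genes. H2bc18 scored highest (31.8), and its peak centre lay at -154 bp from the start. H2bc18 had H3K4me3 in both replicates (241.5 and 101.1) and no TAF4b in replicate 2. H2bc14 had TAF4b scores of 20.8 and 44.5 and H3K4me3 scores of 114.8 and 96.0, and was the one histone gene present in all 4 lists. The others were H2bc27 (17.4), H2bc3 (17.9) and H2ac4 (9.43), each in replicate 1 only.

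Among H3 genes, TAF4b was at H3c7, H3c3 (13.9), H3c6 (13.4) and H3c8 (13.4) in replicate 1. H3c7 had a peak of 25.3 in replicate 1 and 68.8 in replicate 2. Those peaks lay 304 and 294 bp past the annotated start, but at -129 and -139 bp from the coding start, so their side depends on which start is used. Its head-to-head stretch with H2bc9 held a separate peak of 15.4 in replicate 1, nearer H2bc9. The remaining 8 H3 genes had no TAF4b peak, and H3c14 also had no H3K4me3 region within 500 bp of its annotated start.

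Among H4 genes, TAF4b scores in replicate 1 were 27.3 at H4c3, 18.9 at H4c16, 18.4 at H4c1, 16.4 at H4c4, 14.4 at H4c2 and 7.44 at H4c9. H4c1 was also in TAF4b replicate 2, with 44.5. H4c16, a single gene outside the clusters on chromosome 6, had a further peak of 13.9 centred 526 bp past its coding start. Of the 29 TAF4b peaks of replicate 1 within 500 bp of a histone gene start, only this one was centred past the nearest coding start. A peak of 11.4 named for H4c8, centred 623 bp past its coding start, lay outside that window and was not counted.

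H1f1 to H1f5 encode the somatic linker histones that accumulate in dividing cells. Of these, TAF4b in replicate 1 was at H1f2 (15.9) and H1f4 (9.43), and H3K4me3 was at H1f1, H1f2, H1f4 and H1f5. H1f5 had the highest H3K4me3 score of all histone genes in replicate 1 (292.2) and in replicate 2 (141.5), with no TAF4b peak in either replicate.

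Among the replacement and germline linker histones, H1f10 had a TAF4b score of 6.95, the lowest at a histone gene, and an H3K4me3 score of 128.2. H1f0, a replacement form of non-dividing cells, had H3K4me3 (87.9) and no TAF4b. H1f6, the linker histone of meiotic spermatocytes, and H1f7, of spermatids, had H3K4me3 scores of 119.2 and 111.8 and no TAF4b. H1f8, the oocyte linker histone, and H1f9, of late spermatids, had no interval at their starts. No linker histone gene was in TAF4b replicate 2.

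TAF4b peaks at histone genes lay mostly upstream of the annotated start. Each peak of replicate 1 was 142 bp wide as the deposited start and end are subtracted, and 29 separate peaks served the 37 genes, 11 of them reaching 2 starts. Their centres had a median position of -96 bp from the nearest histone gene start, and 24 of 29 were upstream, against a median of -20 bp and 63.6% upstream over all genes. From the nearest coding start the median was -124 bp, and 28 of 29 were upstream, against a median of -304 bp and 90.8% over all genes. A count upstream of the coding start thus differs little from that of all genes. The medians were -107 bp at H4 (n = 7), -114.5 bp at H3 (n = 4) and -61 bp at H1 genes (n = 3). At the 9 H2A and H2B pairs the centre lay a median of 154 bp from the H2A coding start and 155 bp from the H2B coding start. In replicate 2 all 6 peaks were centred upstream of the coding start, at -171 to -117 bp, against 94.2% over all genes. For 12 genes the annotation places the start at the coding start, so positions from the annotated start are not exact.

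**Figure D3:**
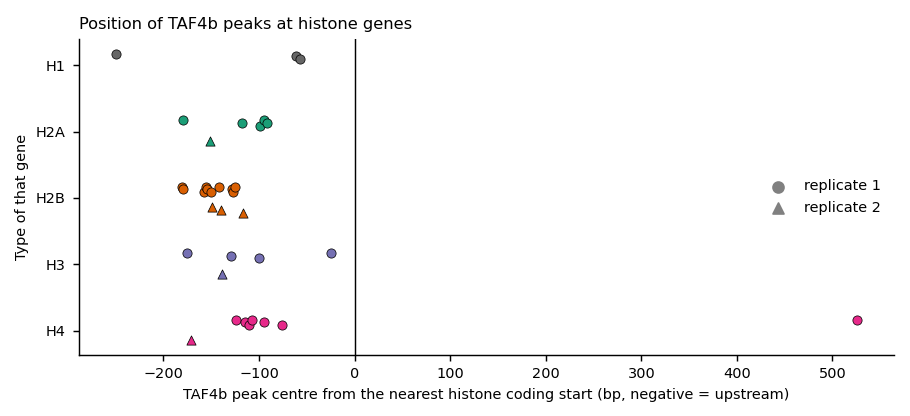
Position of each TAF4b peak centre relative to the nearest histone coding start (x, bp, negative is upstream), by histone type of that gene (y). Circles are replicate 1 (29 peaks) and triangles replicate 2 (6 peaks), and all but 1 circle, at H4c16, lie left of 0.

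All 6 TAF4b peaks of replicate 2 at histone genes overlapped a replicate 1 peak (100%, 61.0 to 100), against 82.8% over all genes. All 6 also overlapped an H3K4me3 region of replicate 1, against 92.4%. Of the 29 peaks of replicate 1, 27 overlapped an H3K4me3 region of replicate 1 (93.1%, 78.0 to 98.1), against 86.6% over all genes. The exceptions were the peaks at H4c4 and H2ac4. The H4c4 peak lay beside the region of that gene, and the region counted at H2ac4 is named for H3c2 in the deposited list and centred 1082 bp past the H2ac4 start. TAF4b scores of replicate 1 at histone genes had a median of 17.9 (6.95 to 32.8, n = 29), close to 16.9 over all genes, so the listed peaks were of ordinary height within that list.

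In replicate 1 the H3K4me3 regions at histone genes were wide and high in their list. The 63 marked genes of replicate 1 were served by 40 regions, of which 22 reached 1 histone start, 13 reached 2 and 5 reached 3. Their median width was 1852 bp (628 to 4248), against 1307 bp over all gene starts. Their scores had a median of 126.7 (32.8 to 292.2), against 85.0, and a median rank at percentile 92.3 of the list, against 78.9. Median width was 1616 bp for regions reaching 1 start, 1836 bp for 2 and 3189 bp for 3. Region width and the number of starts it can reach are linked by construction.

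The widest region, 4248 bp with a score of 280.2, reached H4c1, H3c1 and H1f1. Another, of 3189 bp and 271.3, reached H2ac21, H2ac20 and H2bc21, and none of these 3 genes had TAF4b. The lowest scores were 32.8 at H4c2 and 38.8 at H2ac8 and H2bc8, and both of these places had TAF4b. H3c15 was lowest among H3 genes (50.7), and H1f0 among H1 genes (87.9). In replicate 2 the 4 listed genes were H1f5 (141.5), H2ac21 (121.3), H2bc18 (101.1) and H2bc14 (96.0). The region counted at H2ac21 is named for Bola1 and Gm15444 in the deposited list. The median width of the 4 regions was 500 bp and their median score 111.2 (n = 4). Both are the same as over all gene starts in that list, so the regions were neither wide nor high there.

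Of the 40 regions, 24 overlapped a TAF4b peak of replicate 1. These had a median score of 153.6 (32.8 to 280.2) and width of 2037.5 bp, and the other 16 had 94.65 (47.7 to 292.2) and 1616 bp. The ranges overlap almost entirely, and no test was run on them.

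**Figure D4:**
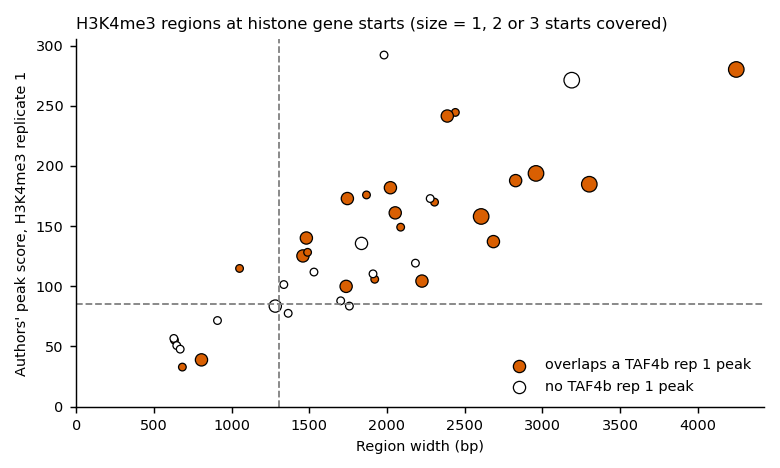
Authors' peak score (y) against width (x, bp) of the 40 H3K4me3 regions of replicate 1 at histone gene starts. Filled points overlap a TAF4b peak of replicate 1, point size gives 1, 2 or 3 histone starts, and dashed lines are the medians over all gene starts (1307 bp and 85.0). Most points lie above and to the right of the lines.

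In 10 histone genes no list had an interval at an annotated start: H1f3, H1f8, H1f9, H3c14, H2ac23, H2ac24, H2bc23, H2bc24, H4c17 and H4c18. The coding start of H1f3 lies over 500 bp from its annotated start, and a 2455 bp H3K4me3 region with a score of 232.5 was centred 266 bp past its coding start. H3c14 has a region of 500 bp and score 26.8 centred 748 bp past its coding start, which comes within 500 bp of that start. H2bc6 is the other gene whose coding start is over 500 bp from every annotated start. Its H3K4me3 call (161.0) came from the region at H1f4, and another region (99.9) was centred at -61 bp from its coding start.

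Histone genes have near-identical copies, where short reads cannot be placed with certainty. The share of 50-base words within 500 bp of the coding start that occur more than once in GRCm39 had a median of 28.7% over the 73 genes and exceeded 50% in 11. The 6 neighbours H2bc23, H2ac23, H4c17, H4c18, H2ac24 and H2bc24 ranged from 90.3% (H4c17) to 100%. The other 5 were H3c14 (94.7%), H3c15 (92.5%), H2ac18 and H2ac19 (73.0% each) and H2ac7 (50.8%). TAF4b in replicate 1 was at 1 of these 11 genes and H3K4me3 at 4, whereas among the other 62 genes the counts were 36 (58.1%) and 59 (95.2%). The part of repeated sequence in the missing intervals was not tested.

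Leaving out those 11 genes, TAF4b in replicate 1 was at 19 of 23 genes in head-to-head pairs (82.6%, 62.9 to 93.0) and 17 of 39 others (43.6%, 29.3 to 59.0). Without them the interval for the paired genes lies above the 60.7% of all divergent genes, which include genes with repeated sequence. That interval counts both genes under a shared peak as independent, so it is too narrow. Leaving out these genes was chosen after seeing the data, and an excess over all divergent genes was not tested. The chromosome 3 cluster includes 4 of the 11 genes. Apart from H2bc18, which had no repeated words, its genes with the fewest, H2ac21 (8.70%), H2bc21 (8.40%), H4c14 (1.70%) and H2ac20 (19.1%), had H3K4me3 scores of 172.9 to 271.3 and no TAF4b peak.

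The promoter letters differed between types. RefSeq promoters (250 bases before to 50 after the start, GRCm38.p6) were matched by symbol for 62 of 73 histone genes and compared with all 17491 matched protein-coding promoters, on both strands. CCAAT was in 82.3% of histone promoters and 42.3% of all, TATAAA in 54.8% and 14.8%, and the octamer ATTTGCAT in 21.0% and 1.9%. The GC box GGGCGG was in 40.3% and 49.2%. The E2F letters TTTCGCGC, TTTGGCGC or TTTCCCGC were in 16.1% and 2.76%. E2F factors act on genes of the DNA synthesis phase. No motif contains another, but matches of different motifs can overlap by some bases.

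By type, CCAAT was in 17 of 17 H2A, 14 of 14 H2B, 10 of 10 H3, 7 of 10 H1 and 3 of 11 H4 promoters. The octamer was in 6 H2A and 7 H2B promoters and in 0 of the H1, H3 and H4 promoters. TATAAA was most frequent at H4, in 8 of 11. Between the 31 matched histone promoters with TAF4b in replicate 1 and the 31 without, the octamer was in 11 and 2, and an E2F sequence in 9 and 1. TATAAA was in 17 of each, and CCAAT in 28 and 23. Types are unevenly spread over these groups. Within H2B promoters the octamer was in 6 of 11 with TAF4b and 1 of 3 without, and within H2A in 5 of 9 and 1 of 8. Among H4 promoters CCAAT was in 3 of 5 with TAF4b and 0 of 6 without. A paired promoter is counted once for each of its genes.

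Inside the TAF4b peaks themselves, CCAAT was in 25 of 29 at histone genes (86.2%, 69.4 to 94.5) and 36.8% of 5666 peaks at all gene starts in replicate 1. The octamer was in 9 (31.0%) and 1.02%, TATAAA in 5 (17.2%) and 1.64%, and GGGCGG in 7 (24.1%) and 57.0%. An E2F sequence was in 2 (6.9%, 1.91 to 22.0) and 2.17%, and that interval includes the share of all peaks. In replicate 2 CCAAT was in 6 of 6 peaks and the octamer in 3, against 58.9% and 2.49% of 723 peaks. A match is a description of the letters, and binding of any factor to them was not measured.

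**Figure D5:**
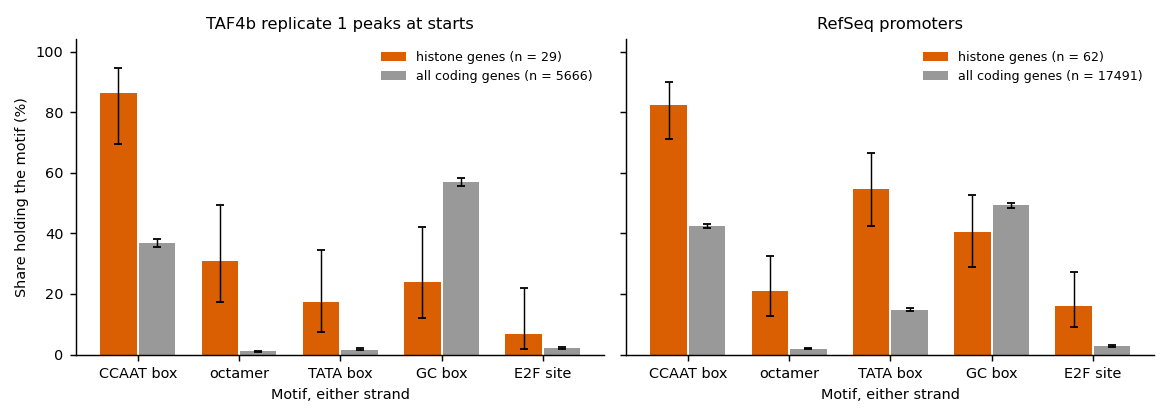
Percentage of sequences holding each motif on either strand (y), in TAF4b replicate 1 peaks at gene starts (left) and in RefSeq promoters (right), for histone genes and all protein-coding genes, with 95% Wilson intervals. The CCAAT, octamer and TATA bars are taller for histone genes in both panels, and the GC box bar is shorter in the peaks.

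Genes that act on histone genes or their products were listed by name. Of 20 genes for histone gene transcription and 3′ processing of the mRNA, 13 had TAF4b in replicate 1, 3 in replicate 2, 17 had H3K4me3 in replicate 1 and 1 in replicate 2. The shares of all genes, which apply to each of the lists that follow, were 27.7%, 3.99%, 69.6% and 6.71%. Slbp, which encodes the stem-loop binding protein, had TAF4b scores of 22.8 and 48.6, and Zfp473, a zinc finger protein of the 3′ processing complex, had 31.8 and 56.7. Npat, the coactivator at histone loci (25.8), Casp8ap2 (26.3), Hinfp, an activator of H4 genes (25.3), and Cramp1 (36.2) were in replicate 1 only. So were Pou2f1 (23.8), which encodes OCT1, the 3′ processing genes Cpsf3 (22.3), Sympk (20.3), Cpsf2 (10.4) and Cstf2 (10.4), and the cyclin E and kinase genes Ccne2 (18.9) and Cdk2 (16.9). E2f1 was in TAF4b replicate 2 only (52.6).

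Of 14 histone chaperone genes, 6 had TAF4b in replicate 1, 3 others in replicate 2, and 13 had H3K4me3 in replicate 1. The 3 were Cabin1 (44.5), Daxx (52.6) and Nap1l4 (97.2). In replicate 1, Chaf1a and Chaf1b of the assembly factor CAF-1 scored 25.3 and 19.4, and Asf1b scored 30.8. Ubn1 scored 33.7, Nap1l1 17.4 and Atrx 8.44. Of 12 histone variant genes that the symbol rule leaves out, 5 had TAF4b in replicate 1. H2ax, the variant phosphorylated at DNA breaks, scored 44.7 and 76.9, and H3f3b, which encodes the replacement H3.3, scored 32.8 and 52.6. H2az2 (46.2), H2az1 (34.2) and H3f3a (22.8) were in replicate 1 only. Of the histone variant genes, H2ax, H2az1 and H2az2 scored above every score at the 73 histone genes in that list, where the highest was 32.8.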

How the data were processed

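CUT&RUN was analysed from 4 deposited lists, each of 1 library, with 2 replicates of each antibody (TAF4b, H3K4me3). The submitters' processing notes name Bowtie2 2.3.0, SAMtools 1.9, HOMER 4.10, Trim Galore 0.5.0, FastQC 0.11.5, bcl2fastq 2.20 and the GRCm39 build. The deposited columns used were coordinates, annotation and the authors' peak score, whose scaling is not given in the sources used here. The focus ratio, a fraction that the authors deposited with the TAF4b peaks, entered no result. Other deposited values are region sizes and distances to starts. The H3K4me3 lists were annotated with Ensembl 103, per the file headers.

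The deposited rows name at most 2 genes per interval and do not name every gene whose start it reaches, so genes were assigned from coordinates: an interval counted when it overlapped, by at least 1 bp, 500 bp on either side of a protein-coding start in GENCODE release 39 for mouse. This step recovered planted intervals when tested on simulated data. Shares carry 95% Wilson intervals, for counting error only. The difference between antibodies was tested by exact permutation over libraries. Motifs were searched as exact letters. Python 3.11.15 with numpy 2.4.6, pandas 2.3.3 and scipy 1.17.1 was used.

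Groups and replicate numbers came from the sample titles. Whether equal numbers pair libraries is not stated and could not be checked with 2 numbers. Nothing states that replicates are separate animals, so spreads may be technical. The members and gene lists were chosen with earlier results of these data known. Named genes were those with TAF4b at a start or an interval in a replicate 2 list, the highest and lowest H3K4me3 scores by type, genes in no list, genes under an interval named for another gene, and listed pathway genes with TAF4b. Alternatives covered the window, deposited classes and names, score, list length, gene subsets and overlap. Those on the coding start, the canonical start and repeated words were chosen after seeing the data. Promoters of 11 genes were not matched and are not described.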

Additional observations from a re-analysis of the deposited data

How the results depend on the processing

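Of 73 alternative values, 62 kept their direction and stayed within the counting interval or spread of the reported value, 9 moved and 2 reversed. One alternative kept only the gene in the annotation of each promoter-TSS row, without the nearest promoter that the row also lists. The share of histone genes then fell to 35.6% and 6.85% for TAF4b in replicates 1 and 2, against 22.9% and 3.15% of all genes. For H3K4me3 it fell to 38.4% and 1.37%, against 44.3% and 4.16%. The difference between antibodies then reversed to -1.37 percentage points. The cause was not tested. Any row naming the gene gave 69.9% for H3K4me3 replicate 1, against 78.7% of all genes. The higher-scoring 50% of the list gave 37.0% for TAF4b replicate 1, against 17.8% of all genes. Cut to the length of the replicate 2 lists, replicate 1 gave 4.11% for TAF4b and 34.2% for H3K4me3, against 4.32% and 6.77% of all genes, so the TAF4b excess over all genes was not seen at that length and the H3K4me3 excess was. Without the 11 genes rich in repeated words, H3K4me3 replicate 1 gave 95.2%. Against the short H3K4me3 replicate 2 list, 6.90% of the TAF4b peaks overlapped a region. Leaving out either replicate moved the antibody difference between -6.85 and 35.6 percentage points, with the reversed sign when replicate 1 was left out. With replicates paired by number (replicate block) the difference stayed at 14.4 percentage points, with an exact sign-flip p of 1. The alternatives with shorter lists enter fewer intervals by construction. Unknown depth limits every absence, above all in replicate 2.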

Other observations

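Histone pseudogenes that the symbol rule leaves out lie under some of the same intervals. The start of H2ac14-ps, a pseudogene of the H2A type, lay within 500 bp of the intervals counted at H2bc14, with TAF4b scores of 20.8 and 44.5 and H3K4me3 scores of 114.8 and 96.0 in replicates 1 and 2. The start of H2ac5-ps lay within reach of the TAF4b peak (17.9) and the H3K4me3 region (187.8) counted at H2bc3 in replicate 1. Both H2B genes were counted as unpaired in the report because their neighbours are not protein-coding. H1f11-ps, on chromosome 19, had no interval in any list.

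The deposited rows named 1 or 2 genes per interval, and some histone genes are not named at an interval that reaches their start. In replicate 1, 6 histone genes with TAF4b were not named in any row at their peak (H2ac22, H2ac12, H2bc11, H2bc8, H2bc7 and H2ac6), all of them partners in head-to-head pairs. For H3K4me3 in replicate 1 this held for 15 histone genes. All 29 TAF4b peaks of replicate 1 at histone genes were deposited as promoter-TSS, and 32 of the 40 H3K4me3 regions were.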
